A study of Homo sapiens with 102 samples.

Results

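The addition of YM115 to trametinib was examined in K562 cells, an established line of chronic myeloid leukaemia that carries the BCR-ABL fusion. The members were chosen by their labels. 12 libraries held trametinib together with YM115 in either listed order, and 12 held trametinib together with DMSO, the solvent, also in either order. These 24 libraries were part of 102 in the series. Trametinib was thus present in every library of the comparison, and YM115 was the difference between the groups. The labels spell the compound YM115, whereas the study calls it YM155. The cells were measured by Combi-Seq, in which single cells are enclosed in droplets with a pair of drugs and barcode fragments that encode them. Incubation lasted 12 h. Every ordered pair was run 3 times in each of 2 screens, named dT and Bio, which differ in how barcodes were assigned to drugs. Which position in a label belonged to which injection source was not settled, so a drug is called listed first or listed second. The study calls the runs biological replicates, but the labels do not say that they were separate cultures, and p-values therefore measure the spread between these libraries, which may be technical.

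Trametinib inhibits MEK1 and MEK2, the kinases that activate ERK downstream of RAS and of BCR-ABL. YM155 was developed as a suppressor of survivin, the product of BIRC5, which is needed for chromosome segregation and also counters apoptosis. K562 cells have an erythroid leaning and express embryonic and fetal globins together with genes of iron handling, such as ferritin, the protein shell in which cells store iron. Metallothioneins are small proteins that bind zinc and copper and are induced by metals through metal response elements in their promoters.

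The gene that fell most clearly was FTL, which encodes the ferritin light chain, and its processed pseudogenes carry almost the same letters. The coding sequence of FTL is 528 bases long. Over that length FTLP3 differed from it at 12 bases (97.7% identity) and FTLP2 at 32 bases (93.9%). Reads of such sequences can be assigned to either gene. The study primed reverse transcription with poly-dT and made libraries of transcript ends, whereas only coding bases were compared here. How far reads were exchanged between such genes was not tested.

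One library with trametinib and DMSO, from run 1 of the Bio screen with DMSO listed first, had 808 detected genes and was left out because it fell under the minimum of 1000. This left 12 libraries with YM115 and 11 without, in 6 blocks of screen and run. Total counts ranged from 150237 to 518396 with YM115 and from 82879 to 428546 without it, the library left out being within that range. With YM115 the total was 1.45 times higher in the mean over blocks, and it was higher in 10 of 11 pairs of libraries that shared screen, run and listed order (exact permutation test within blocks, two-sided, p = 0.0116, adjusted over 9 library tests 0.0349). In these pooled samples, differences in cell number, in RNA per cell and in the yield of barcoding or sequencing cannot be told apart. Detected genes differed by 504 in the same direction (exact permutation p = 0.136, adjusted 0.19). Both gaps were larger with trametinib listed second, here with the library left out included (6 libraries per order and group). In that order, mean totals were 362040 with YM115 and 167033 without it, and mean detected genes 2935 and 1824. With trametinib listed first, they were 347036 and 307273, and 3369 and 3286. Whether these gaps depended on the order was not tested. The mitochondrial share of counts was 4.25% ± 0.517 with YM115 (SD, n = 12) and 5.32% ± 0.761 without it (SD, n = 11), lower in 9 of 11 pairs (exact permutation p = 0.00137, adjusted 0.0123). In the dT screen all 6 pairs were lower, by 1.45 percentage points in the mean (exact permutation p = 0.00926, the smallest this design allows, adjusted 0.0349), whereas in the Bio screen 3 of 5 pairs were lower (exact permutation p = 0.148). Of 10 markers of K562 cells, 9 had counts in either group, with a summed level of 17185 to 46813 CPM (counts scaled by the library total, as everywhere here) without YM115 and 28688 to 72105 with it. Of 9 lymphoid and stromal markers in the table, 2 had a count in each group, with summed medians of 0 and highest values of 37.3 and 607 CPM.

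**Figure D1:**
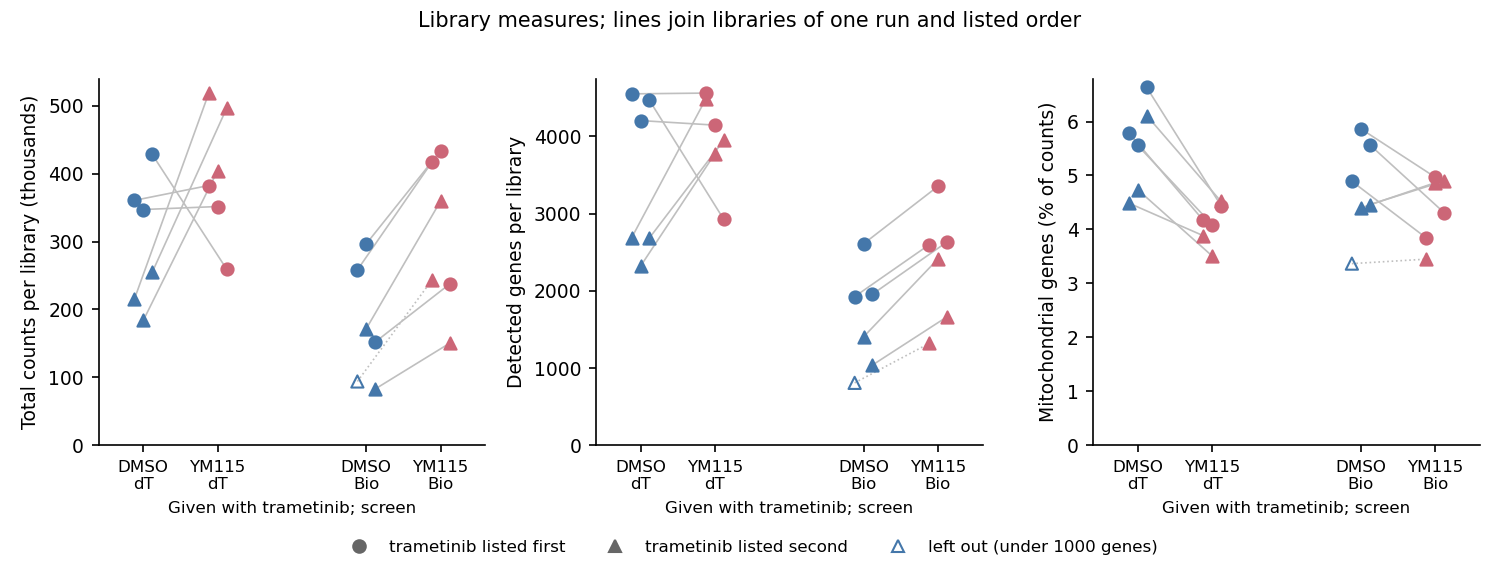
Total counts (axis scaled by 1000), detected genes and the mitochondrial share of counts for each of the 24 libraries, by screen and by the compound given with trametinib. Grey lines join libraries of the same run and listed order, and the open triangle is the library left out with 808 detected genes. The mitochondrial share drops along all 6 lines of the dT screen.

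Which genes changed when YM115 was added was tested on the 1562 genes that had counts in 50% or more of the 23 libraries, with blocks for screen and run. FTL fell, and HBG2, which encodes a gamma chain of fetal haemoglobin, rose. No other gene passed edgeR's quasi-likelihood test at an adjusted p of 0.05, so that 2 genes, or 0.128% of those tested, were called. An unadjusted p under 0.05 was reached by 105 genes, or 6.72%. DESeq2 called 81 genes (5.19%), of which 44 were higher (2.82%) and 37 lower (2.37%), and 10 of these had a count in all 23 libraries. FTL and HBG2 were among these 10 (DESeq2 adjusted p = 6.19e-11 and 0.00169). The scaling mattered for the balance of signs. Across the 1562 genes the middle log2 fold change was 0.32 with TMM factors, and 0.17 with DESeq2 size factors in the same edgeR test, where FTL fell and 0 genes rose. Single genes are therefore also given relative to the median of 0.32. With every library thinned to the lowest total, and also without the mitochondrial genes, FTL and HBG2 were still called. Only 165 genes had a count in every library, FTL and HBG2 among them, and no other of these was called (2 of 165, or 1.21%). Their median standard error, worked back from the fold change and the F statistic of edgeR, was 0.54 on the log2 scale. For the other 1397 genes it was 1.47, which is larger than the change of FTL described next.

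**Figure D2:**
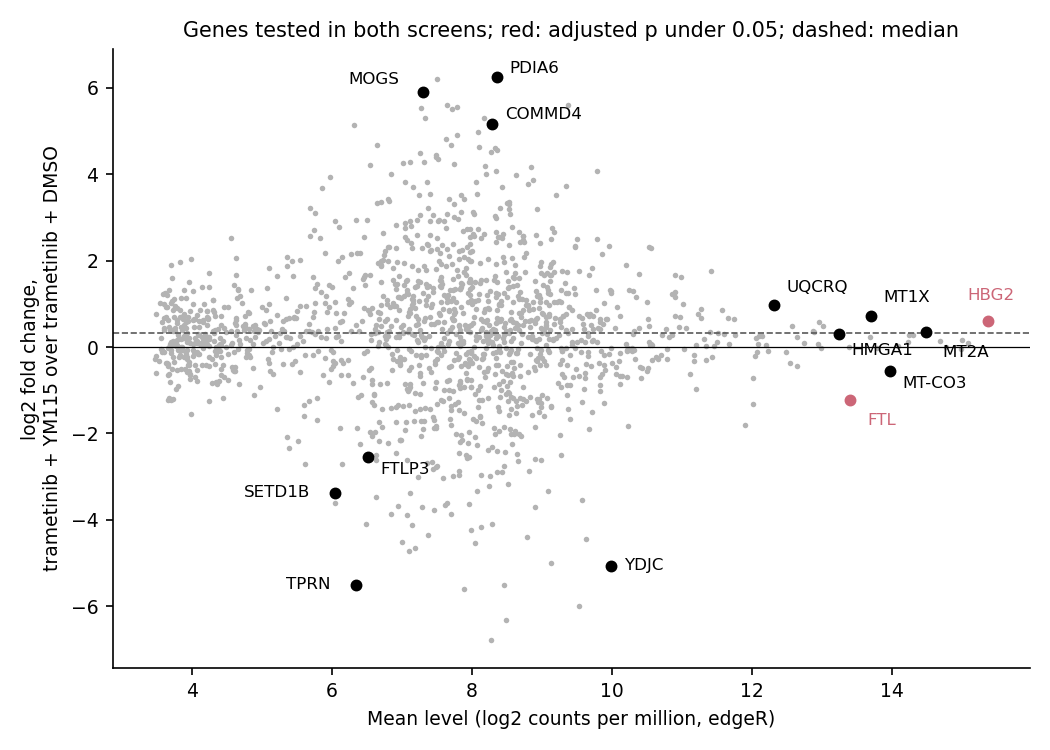
Log2 fold change with YM115 against the mean level (log2 CPM from edgeR) of each of the 1562 tested genes. FTL at -1.22 and HBG2 at 0.60 (red) passed an adjusted p of 0.05. Other labelled genes (black) did not, and the dashed line marks the median of 0.32.

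FTL (chromosome 19, 48965301 to 48966878, plus strand, GRCh38) was counted at 7147 CPM in the lowest, 10844 in the median and 19467 in the highest of 11 libraries with trametinib and DMSO. With YM115 it was counted at 2867, 5050 and 7555 CPM (lowest, median and highest of 12). Within the dT screen and within the Bio screen the groups did not overlap. FTL was the only one of 1562 genes (0.064%) of which this was true in both screens. Across screens a single value overlapped, since the highest library with YM115, from the Bio screen, lay above the lowest without it, from the dT screen. The log2 fold change was -1.22 ± 0.19 (SE, adjusted p = 0.0024), which is 1.54 below the median gene, and FTL was lower in all 11 pairs. It fell by 1.35 in the dT screen alone (SE 0.22, adjusted p = 0.0317). In the Bio screen alone the value was -1.05 ± 0.29 (unadjusted p = 0.00307, adjusted p = 0.774). The level without YM115 depended on the listed order in the dT screen, with 7147 to 10087 CPM where trametinib was listed first and 14254 to 19467 where it was listed second. With YM115 these values were 4004 to 5676 and 4010 to 6144 CPM. The orders thus did not overlap without YM115 and overlapped widely with it. Without YM115, the dT libraries with trametinib listed second also had fewer detected genes, 2319 to 2687 against 4206 to 4552. Their total counts were 183814 to 254737 against 347290 to 428546. Listed order and library depth thus went together in these dT libraries and cannot be told apart there. The product of YM115 and order for FTL in that screen was -0.73 ± 0.32 (unadjusted p = 0.0371, adjusted p = 0.661). With trametinib listed first only, in both screens, the log2 fold change of FTL was -0.89 and no longer passed (adjusted p = 0.309).

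FTLP3 (chromosome 20, 4023917 to 4024444) was counted at 24.1 to 283 CPM without YM115 and at 8.23 to 46.2 CPM with it, with medians of 91.0 and 15.8. It was lower in all 11 pairs, although the groups overlapped. Its log2 fold change of -2.55 ± 0.65 did not pass by edgeR (adjusted p = 0.271), whereas DESeq2 called it lower (adjusted p = 0.000125). That of FTLP2, at -1.19 ± 0.52, did not pass by edgeR either (adjusted p = 0.684). Because the coding sequences are nearly identical, reads of the pseudogenes and of FTL may be exchanged, so the 3 genes are not separate observations. FTH1, which encodes the ferritin heavy chain, was at 479 to 2055 CPM without YM115 and at 20.0 to 1314 with it, with a log2 fold change of -0.86 ± 0.67 (adjusted p = 0.905). Of the 8 genes of iron storage and uptake, only FTL and FTH1 were counted often enough to be tested. TFRC, the transferrin receptor, had a count in 4 of 11 libraries without YM115 and in 1 of 12 with it.

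The 250 bases before the start of FTL (RefSeq, GRCh38.p14, chr19:48965059-48965308, plus strand) are shown with the CCAAT motif, searched on both strands, in capitals. They held 2 matches, both as the reverse complement. Of 35116 promoter windows of this length, 32.0% held at least 1. The core of the antioxidant response element, searched as TGACNNNGC on both strands, was not found in these letters, and 10.9% of windows held it.
FTL promoter: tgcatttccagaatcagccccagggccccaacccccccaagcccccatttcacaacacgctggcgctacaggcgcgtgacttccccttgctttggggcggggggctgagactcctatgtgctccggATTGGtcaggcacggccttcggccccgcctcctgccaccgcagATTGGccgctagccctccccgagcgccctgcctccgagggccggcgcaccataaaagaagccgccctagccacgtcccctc

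HBG2 (chromosome 11, 5253190 to 5505605, minus strand) was counted at 16294, 23398 and 44677 CPM without YM115 (lowest, median and highest of 11) and at 25320, 32659 and 70234 CPM with it (of 12). The groups overlapped, but within each run and listed order the library with YM115 was the higher one, in all 11 pairs. Of the 1562 genes, 3 (0.192%) were higher in every pair, and 2 (0.128%), FTL and FTLP3, were lower in every pair. The other two higher ones were UQCRQ and ATP6V0B, the latter named after its values were seen. The log2 fold change of HBG2 was 0.60 ± 0.11 (adjusted p = 0.0103), of which 0.28 lay above the median gene. In the dT screen it rose by 0.59 ± 0.09 (adjusted p = 0.0317), while the Bio screen gave 0.64 ± 0.19 (unadjusted p = 0.00396, adjusted p = 0.774). Both libraries of dT run 3 with YM115 stood highest, at 57580 and 70234 CPM. The highest library without YM115 was of the same run, at 44677 CPM. The library at 70234 CPM, with trametinib listed first, had 2925 detected genes against 4147 and 4562 in the same pair of the other runs, and 7.20% of its counts were globin counts. Without it the value over both screens was 0.59 (adjusted p = 0.0118), whereas in the dT screen alone it was 0.51 and did not pass (adjusted p = 0.0984). DESeq2's own Wald test over both screens called HBG2 higher (0.45, adjusted p = 0.00169). The edgeR call over both screens was lost with DESeq2 size factors (0.45, adjusted p = 0.0982), without the blocks (0.68, adjusted p = 0.161) and without a filter on low counts (0.70, adjusted p = 0.786). It was also lost with trametinib listed first only (0.65, adjusted p = 0.122), and when dT run 1 or dT run 3 was left out (0.61 and 0.58, adjusted p = 0.0841 and 0.147).

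HBG1, the second gamma chain gene, differs from HBG2 at 2 of 444 coding bases and had a count in 1 and in 3 libraries of the groups without and with YM115. The split of reads between these genes is therefore uncertain, and the annotated interval of HBG2 also overlaps that of HBE1. Of 10 globin genes 5 were tested, and HBG2 alone passed. HBZ, the embryonic zeta chain, was at 262 to 1747 CPM without YM115 and at 482 to 2367 with it, with a log2 fold change of 1.05 ± 0.46 (adjusted p = 0.684). It was higher in 10 of 11 pairs. All 5 tested globin genes had values above 0, with a median of 1.04 against 0.32 for all genes, and 62.7% of all tested genes had values above 0. This median was the value of HBE1, at 1.04 ± 1.10, which was higher in 6 of 11 pairs. In the dT screen alone, 5 of 6 tested globin genes had values above 0 and 1 was below. HBG2 and HBZ are among the K562 markers summed above.

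Of 23 erythroid regulators and enzymes of haem synthesis, 6 were tested, 5 had values above 0 (median 1.11) and 0 passed by edgeR. UROD, an enzyme of haem synthesis, had a log2 fold change of 2.32 ± 1.18 (adjusted p = 0.734). BLVRB, a reductase of biliverdin and flavins abundant in red cells, ranged from 652 to 12458 CPM without YM115 and from 799 to 3305 with it. Its value of -1.32 ± 0.47 (adjusted p = 0.469 by edgeR and 0.0115 by DESeq2) turned to 0.08 with trametinib listed second only. ALAS2, the erythroid enzyme that begins haem synthesis, had a count in 3 of 11 and in 6 of 12 libraries and was not tested.

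**Figure D3:**
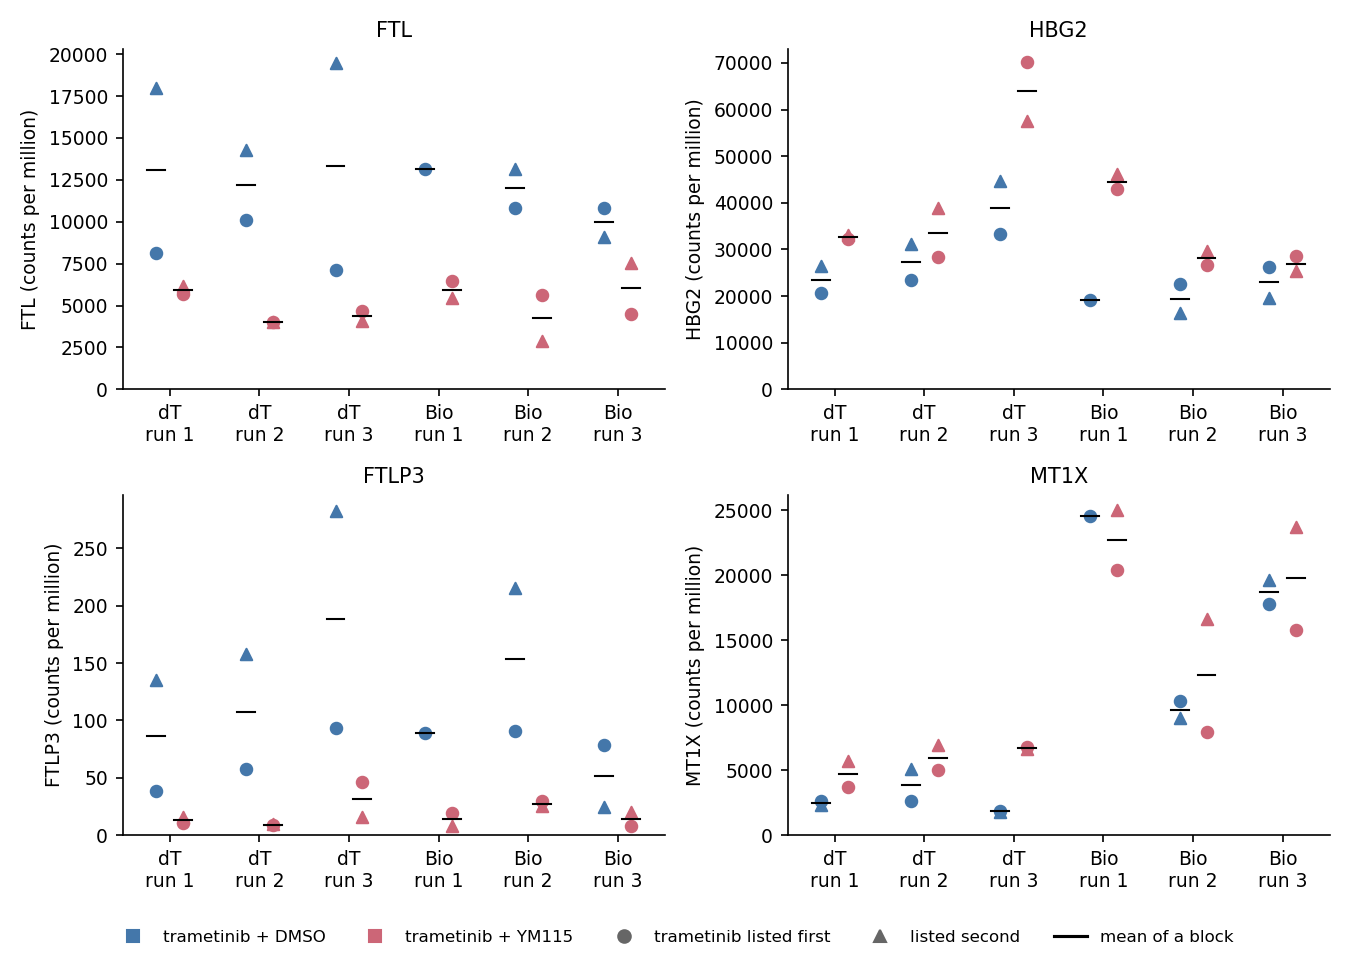
CPM of FTL, HBG2, FTLP3 and MT1X in each of the 23 libraries, by screen and run. Circles are libraries with trametinib listed first and triangles those with it listed second, and black bars are the means of a block. FTL and FTLP3 are lower and HBG2 is higher with YM115 (red) in all 6 blocks, while MT1X lies higher in the Bio screen than in the dT screen.

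Of 10 metallothionein genes 6 were tested, of which 5 had values above 0 (median 0.51) and 0 passed. MT1X was at 1814 to 5076 CPM without YM115 and at 3677 to 6912 with it in the dT screen (6 libraries each). In the Bio screen its levels were higher, at 8985 to 24550 CPM without YM115 (5 libraries) and 7961 to 24985 with it (6 libraries). The groups overlapped in both screens, and in the dT screen they did so through 1 library without YM115, that at 5076 CPM, the next lying at 2647. The log2 fold changes of MT1X were 1.23 ± 0.26 in the dT screen (adjusted p = 0.174) and 0.17 ± 0.19 in the Bio screen (adjusted p = 1). The difference between screens was -0.95 ± 0.35 (unadjusted p = 0.012, adjusted p = 0.489), which did not pass. Over both screens MT1X gave 0.71 ± 0.20 (unadjusted p = 0.00158, adjusted p = 0.271 by edgeR and 0.0434 by DESeq2). MT2A gave 0.35 ± 0.11 (adjusted p = 0.312) and was higher in 9 of 11 pairs, which is 0.03 above the median gene.

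The 250 bases before MT1X (chr16:56682220-56682469) and before MT2A (chr16:56608334-56608583), both on the plus strand and from RefSeq on GRCh38.p14, are shown with the core of the metal response element, TGCNCNC on either strand, in capitals. There were 4 matches in the window of MT1X and 7 in that of MT2A, some of them in the reverse direction, and 5.85% of all windows held at least 3.
MT1X promoter: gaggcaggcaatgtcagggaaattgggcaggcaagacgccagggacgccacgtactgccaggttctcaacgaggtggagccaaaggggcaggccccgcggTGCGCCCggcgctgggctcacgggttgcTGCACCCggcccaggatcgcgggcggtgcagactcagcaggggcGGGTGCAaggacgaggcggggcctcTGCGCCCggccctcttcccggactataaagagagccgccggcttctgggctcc
MT2A promoter: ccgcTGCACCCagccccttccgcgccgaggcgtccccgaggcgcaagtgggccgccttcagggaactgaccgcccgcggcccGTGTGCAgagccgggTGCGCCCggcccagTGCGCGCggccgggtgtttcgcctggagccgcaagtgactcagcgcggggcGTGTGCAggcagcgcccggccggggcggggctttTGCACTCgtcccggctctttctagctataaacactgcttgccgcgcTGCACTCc

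Of 11 tested mitochondrial genes 6 had values below 0 and 5 above, and whether they differed from each other was not tested. Their medians were -0.29 for complex I, 0.08 for complexes III, IV and V and -1.10 for the rRNAs. All of these medians lay below that of all tested genes, at 0.32. MT-CO3, a core subunit of cytochrome c oxidase, was at 4676, 17620 and 18827 CPM without YM115 (lowest, median and highest) and at 5401, 9726 and 15751 with it, and was lower in 10 of 11 pairs. Its log2 fold change was -0.57 ± 0.19 (adjusted p = 0.444). MT-ND1, a subunit of complex I, gave -0.45 ± 0.18 (adjusted p = 0.652) and was lower in 9 of 11 pairs. MT-CO1, the catalytic subunit of the same oxidase, ranged from 9315 to 19888 CPM without YM115 and from 9720.3 to 17373 with it, with a log2 fold change of 0.11 ± 0.14 that became -0.05 with DESeq2 size factors. MT-RNR2 and MT-RNR1, the ribosomal RNAs of mitochondria, gave -0.37 ± 0.22 and -1.83 ± 1.06 (adjusted p = 0.829 and 0.81), and the value of MT-RNR1 turned to 0.73 with trametinib listed first only. MT-ND5 gave -0.29 ± 0.63 and turned to 1.63 with trametinib listed second only. Of 7 complex I genes 5 were tested and of 6 genes of complexes III, IV and V 4 were tested, and none of the 11 tested mitochondrial genes, rRNAs included, passed by edgeR. DESeq2 called MT-CO3 and MT-ND1 lower (adjusted p = 0.0113 and 0.00622).

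Of 50 nuclear genes of the respiratory chain 29 were tested, 20 had values above 0 (median 0.43) and 0 passed by edgeR. UQCRQ, a small subunit of complex III, was at 1267, 2831 and 4146 CPM without YM115 and at 1868, 4976 and 8951 with it. It was higher in all 11 pairs although the groups overlapped, with a log2 fold change of 0.98 ± 0.28 (adjusted p = 0.271 by edgeR and 0.0265 by DESeq2). COX5B, another subunit of cytochrome c oxidase, gave 0.58 ± 0.27 (adjusted p = 0.711).

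Several genes with small p-values had no count in some libraries and did not pass. PDIA6, a disulfide isomerase of the endoplasmic reticulum, had a count in 6 of 11 libraries without YM115, up to 114 CPM, and in 9 of 12 with it, up to 1687 CPM. MOGS, the glucosidase that begins the trimming of N-glycans, had a count in 3 of 11 and in 9 of 12 libraries, with highest values of 35.0 and 624 CPM. COMMD4 was counted in 6 of 11 libraries with a median of 5.82 CPM and in all 12 with a median of 405 CPM. These 3 had adjusted p-values of 0.271 by edgeR, and DESeq2 called them (adjusted p = 0.000117, 0.00401 and 7.44e-05). In the other direction, TPRN had a total of 356 counts in 11 libraries and 5 in 12, YDJC had medians of 828 and 7.18 CPM, and SETD1B, a histone H3 lysine methyltransferase, was counted in 8 of 11 and in 4 of 12 libraries (adjusted p = 0.271, 0.271 and 0.336 by edgeR, 0.000628, 5.65e-05 and 0.0412 by DESeq2). Fitted fold changes are not given for the genes of this paragraph, since they move with the prior count. Values printed elsewhere for genes without a count in some libraries, such as BIRC5, BCR and CENPF, have the same limit.

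The genes that the drugs are aimed at were sparse. BIRC5 was counted in 4 of 11 libraries without YM115 and in 4 of 12 with it, with highest values of 34.6 and 137 CPM, and was not tested over both screens. In the dT screen, where it could be tested, its log2 fold change was -0.02 ± 0.68 (adjusted p = 0.999), on few counts, and a change of survivin mRNA was not detectable at this depth. MAP2K1, which encodes MEK1, was counted in 1 library of each group. MAP2K2, which encodes MEK2, was counted in 9 of 11 and 11 of 12 libraries, at medians of 316 and 223 CPM, and gave -0.06 ± 1.51 (adjusted p = 0.993). BCR gave -1.53 ± 2.30 (adjusted p = 0.968), and ABL1 had a count in 4 and in 5 libraries. In the list of survivin and mitosis genes 4 of 30 were tested over both screens and 0 passed, with CENPF at 3.20 ± 2.10 and PLK1 at -2.90 ± 1.92. Of 22 apoptosis regulators BAX and BBC3 were tested over both screens. BBC3, the p53 target also known as PUMA, had a count in 5 of 11 libraries without YM115, up to 65.3 CPM, and in 8 of 12 with it, up to 1236 CPM, and did not pass by edgeR (adjusted p = 0.41), whereas DESeq2 called it (adjusted p = 0.00606). BAX gave 0.58 ± 1.27. Of 23 MAPK targets only JUN was tested over both screens, at 1.43 ± 1.86 (adjusted p = 0.953). Of 19 genes of the DNA damage response 0 were counted often enough for that fit. In the dT screen alone, 3 DNA damage response genes, 3 MAPK targets and 3 apoptosis regulators were tested, and 0 passed by edgeR.

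The remaining lists held no gene that passed edgeR. Ribosomal protein genes were among the best measured. Of 40 tested members of the large subunit 23 had values above 0 (median 0.09), and of 29 of the small subunit 15 did (median 0.06), both below the median of all genes. RPL31, a protein of the large subunit, gave 0.10 ± 0.09 and changed sign under at least 1 other setting. RPL13A, counted in every library, gave -0.97 ± 0.38 (adjusted p = 0.547 by edgeR and 0.021 by DESeq2, which called it lower). Among 11 tested genes of translation elongation (median 0.15) were RACK1 at 0.03 ± 0.12, which also changed sign, and EEF2, the ribosomal translocase, at -1.79 ± 0.65 (adjusted p = 0.469). EEF2 was lower in 10 of 11 pairs, with medians of 4854 and 1232 CPM, and DESeq2 called it (adjusted p = 0.0327). Chaperones had 13 tested genes, a median of 0.03, and HSPE1 at 0.66 ± 0.43 and HSP90AA1 at 1.77 ± 0.59 (adjusted p = 0.871 and 0.444) as the most abundant. HSP90AA1, the inducible cytosolic HSP90, was at 78.5, 775 and 4397 CPM without YM115 (lowest, median and highest) and at 963, 2851 and 5033 with it. The groups overlapped, and DESeq2 called it (adjusted p = 0.0223). For hypoxia and glycolysis 12 genes were tested (median -0.15), with ENO1 at 0.08 ± 0.22 and TPI1 at 1.00 ± 0.69. DESeq2 called VEGFA, the angiogenic growth factor, lower (adjusted p = 0.0002), whereas edgeR did not (adjusted p = 0.469), and it had a count in 15 of 23 libraries. The integrated stress response had 9 (median 0.83), with GARS1 at 0.65 ± 1.37 and SARS1 at 1.04 ± 1.26. The proteasome had 10 (median 0.64), with PSMB7 at 0.03 ± 0.66 and PSMA4 at 0.07 ± 1.67. Actin and tubulin had 10 (median 0.54), with MYL6 at 0.21 ± 0.52 and ACTG1 at 0.49 ± 0.89. Of 3 tested genes each for the oxidative stress response (median -0.02) and replication (median 1.43), PRDX5 gave -0.02 ± 1.49, GPX4 -0.16 ± 1.09, STMN1 -0.01 ± 4.59 and MCM7 1.43 ± 1.23. The signs of ENO1, GARS1, PSMB7, PSMA4, MYL6, ACTG1, PRDX5, GPX4 and STMN1 turned under at least 1 other setting.

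The response to YM115 was next compared between the screens and between the listed orders. In the dT screen 2758 genes were tested and 2 were called (0.0725%), again FTL and HBG2, each 0.0363% by direction, while DESeq2 called 112 (4.06%) and 157 had an unadjusted p under 0.05. In the Bio screen 1025 genes were tested and 0 were called by edgeR, with 49 at an unadjusted p under 0.05 and 55 (5.37%) called by DESeq2. The difference of the effect between screens passed for 0 of 1562 genes by edgeR (114 at an unadjusted p under 0.05, 91 called by DESeq2, or 5.83%). For FTL the difference between screens, Bio minus dT, was 0.38 ± 0.38, and for HBG2 it was 0.14 ± 0.22. The product of YM115 and listed order was called for 0 genes in the dT screen (200 at an unadjusted p under 0.05, 108 by DESeq2, or 3.92%) and for 0 in the Bio screen (70 at an unadjusted p under 0.05, 99 by DESeq2, or 9.66%).

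Whether YM115 acted differently on trametinib than on other backgrounds was tested with its product terms. Against solvent, where 6 libraries with DMSO alone and 12 with YM115 and DMSO entered, 1384 genes were tested and only HMGA1 passed (0.0723%, 91 genes at an unadjusted p under 0.05, 54 called by DESeq2, or 3.90%). HMGA1 encodes a high mobility group protein that binds AT-rich DNA and is abundant in proliferating cells. With DMSO alone it was at 8898, 14040.5 and 16379 CPM (lowest, median and highest of 6), and with YM115 and DMSO at 2428, 5679 and 7165 CPM (of 12), without overlap. With trametinib and DMSO it was at 3621, 7324 and 9031 CPM, and with trametinib and YM115 at 5083, 8279 and 10276 CPM, with wide overlap. YM115 lowered HMGA1 on solvent by 1.16 on the log2 scale (SE 0.23, adjusted p = 0.0242, 1 of 4 genes called among 1386, or 0.289%), but gave 0.29 ± 0.16 on trametinib (adjusted p = 0.768). The difference of these effects was 1.43 ± 0.25 (adjusted p = 0.00199). The libraries with DMSO alone were shallow, at 81806 to 198316 total counts. The call was lost without dT run 2 (1.28, adjusted p = 0.058) and without dT run 3 (1.35, adjusted p = 0.0962). Its pseudogenes HMGA1P8 and HMGA1P2, 96.0% identical to it over the coding bases, gave 0.03 ± 0.66 and 0.10 ± 0.67 on trametinib and -3.84 ± 0.74 and -3.08 ± 0.78 on solvent (adjusted p = 0.0242 and 0.242), and share the uncertainty of read assignment. Another high mobility group gene, HMGB2, gave 1.22 ± 1.31 on trametinib.

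Against imatinib, an inhibitor of BCR-ABL, 1398 genes were tested and 0 passed by edgeR (71 at an unadjusted p under 0.05, 15 called by DESeq2, or 1.07%). With YM115 HMGA1 gave 0.34 ± 0.21 on imatinib, and the difference from trametinib was -0.04 ± 0.25. FTL gave -0.45 ± 0.22 on solvent and -0.49 ± 0.29 on imatinib, neither past the threshold (adjusted p = 0.626 and 0.741), against -1.22 on trametinib. The differences were -0.81 ± 0.25 (unadjusted p = 0.00208, adjusted p = 0.389) and -0.78 ± 0.33 (unadjusted p = 0.0218, adjusted p = 0.899) and did not pass either. The median level of FTL was 10844 CPM with trametinib and DMSO, 7484 with DMSO alone and 7688 with imatinib and DMSO, and with YM115 it was 5050, 5755 and 4960 CPM in the same order. The backgrounds were thus further apart without YM115 than with it, as a description of medians. HBG2 rose with YM115 on all 3 backgrounds, by 0.66 ± 0.13 on solvent (adjusted p = 0.0242) and 0.83 ± 0.16 on imatinib (adjusted p = 0.0272, the only gene called among 1438, or 0.0695%), and its product terms were -0.06 ± 0.16 and -0.23 ± 0.21. MT1X rose on solvent by 1.20 ± 0.22 (adjusted p = 0.0242) and gave 0.70 ± 0.27 on imatinib (adjusted p = 0.506). These comparisons on the other backgrounds share no libraries with those on trametinib, but come from the same runs. Library measures moved the same way there, with overlapping ranges. The median mitochondrial share was 6.04% with DMSO alone and 4.35% with YM115 and DMSO. It was 4.72% with imatinib and DMSO and 3.77% with imatinib and YM115. Median total counts were 160842.5 and 222142.5 on solvent, and 238261 and 340950.5 on imatinib. These shifts were not tested.

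**Figure D4:**
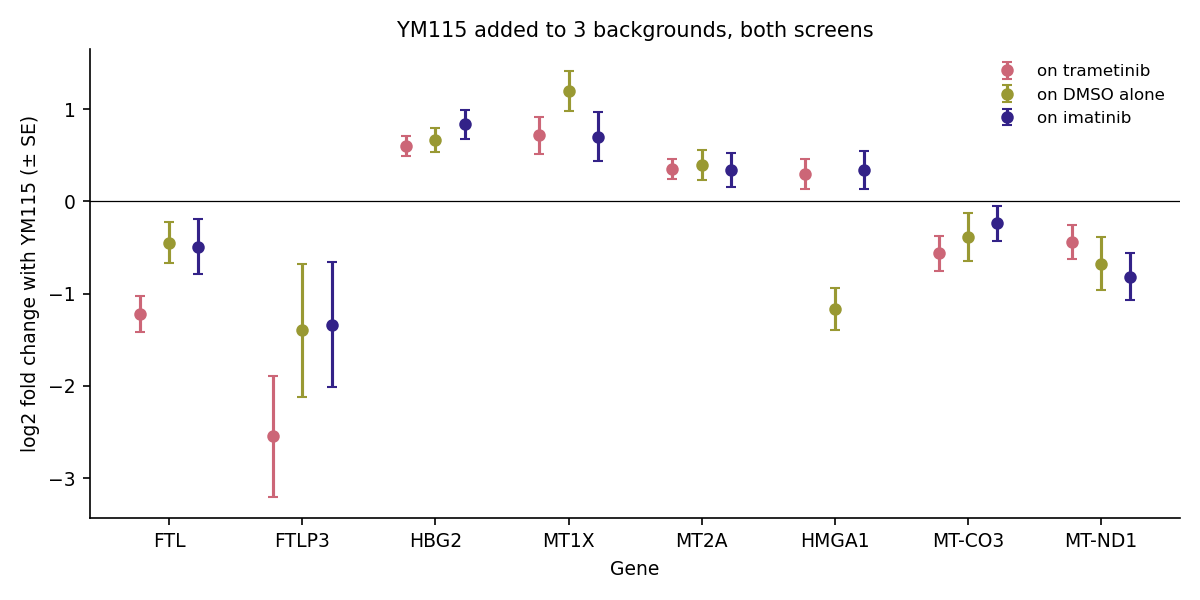
Log2 fold change on addition of YM115 to trametinib, to DMSO and to imatinib for 8 genes, with standard errors. HMGA1 lies at -1.16 on DMSO alone and above 0 on both drugs, and FTL lies lowest on trametinib at -1.22.

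**Figure D5:**
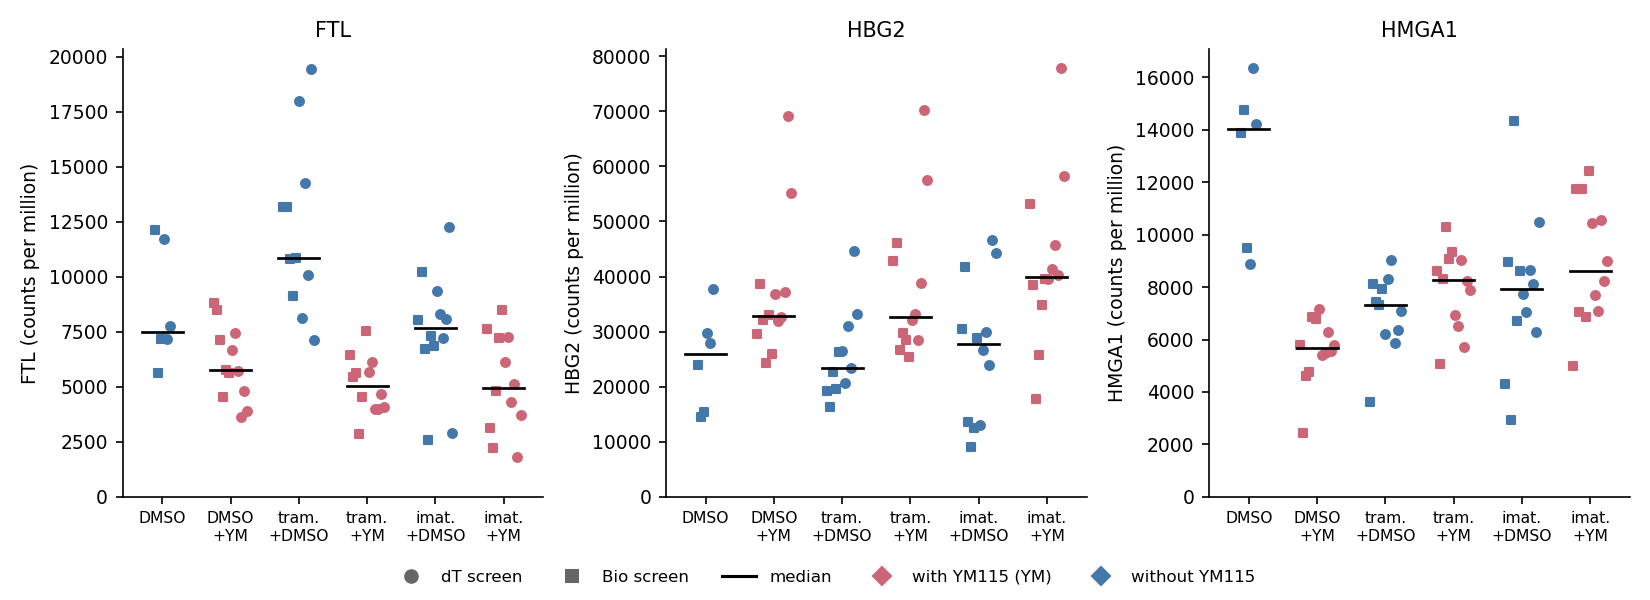
CPM of FTL, HBG2 and HMGA1 in every library that passed, for 6 groups of treatment, with the screens as symbols and the medians as bars. FTL is highest with trametinib and DMSO (median 10844), and HMGA1 is highest with DMSO alone (median 14040.5).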

How the data were processed

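Whole-number counts of reads in genes, not normalised, were deposited for 24965 genes and 102 libraries. Per the submitters' processing notes, STAR 2.4.2a and GRCh38 were used. Whether counting used strand is not given in the sources used here, and no collapse by molecular identifiers is described. Columns of other samples numbered 0. Symbols were found for 21211 genes and coordinates for 24646 in GENCODE release 29. Total counts are the depth, so precision is that of counting plus replicate spread.

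Libraries with under 1000 detected genes were left out. A gene was tested where 50% or more of the libraries of the fit had a count. The test was that of glmQLFit and glmQLFTest after TMM scaling (edgeR 4.0.16, R 4.3.3), with Benjamini-Hochberg adjustment and a threshold of 0.05. Standard errors of edgeR's fold changes were not estimated directly. Each is the absolute log2 fold change divided by the square root of the F statistic. Such a value is approximate, and it is unstable where the fold change is very small, as for STMN1. Screen and run formed the block, since the study treated replicates as a batch. The average correlation of deviations from the group means was 0.0278 within runs of the dT screen and -0.0139 between them. In the Bio screen these averages were 0.0268 and -0.0134. Because group means were removed first, the averages between runs follow largely from those within runs and are not separate observations. Of 22 pairs of replicates 0 held identical counts, and chi-square over its degrees of freedom was 57.6 or more. Levels are CPM of the library total, without TMM. The tests were tested on simulated data, with the outcome not reported here. Library measures were compared by exact permutation within blocks. DESeq2 1.42.0, other filters and scalings, thinning and omission of runs were alternatives. The members, lists and tests were chosen with earlier results of these data known. Named were all genes that passed (up to 15 in each direction over both screens, 5 per screen, 4 per product), the 5 of smallest p where fewer than 5 passed, BIRC5, MAP2K1, MAP2K2, BCR and ABL1, and the 2 tested members of each list with the highest mean CPM. Further genes were named after their values were seen. They are HBG1, HBE1, ALAS2, TFRC, FTLP2, HMGA1P8, HMGA1P2, ATP6V0B, VEGFA and RPL13A. Some genes that this rule selects, and a sequence comparison, are not reported here.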

Additional observations from a re-analysis of the deposited data

Results flagged for a closer look

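In the dT screen, MT1X with trametinib and DMSO was far higher in 1 library, run 2 with DMSO listed first, at 5076 CPM, than in the nearest of the other 5, at 2647 CPM. In the Bio screen, HMGA1 with trametinib and DMSO was far lower in 1 library, run 1 with trametinib listed first, at 3621 CPM, than in the nearest of the other 4, at 7324 CPM. Of 32 groups examined for such a library 2 held one, and chance gives about 1 in 20. The effect of YM115 on HMGA1 differed between trametinib and solvent, with a log2 difference of 1.43 (edgeR's quasi-likelihood test of the product term, adjusted p = 0.00199).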

How the results depend on the processing

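Of 1562 tested genes 1397 had no count in at least 1 of 23 libraries, and their median standard error was 1.47 on the log2 scale. Over both screens the count of 2 genes became 81 with DESeq2, 1 with DESeq2 size factors in edgeR, 8 without a filter on low counts, 4 with a count required in 75% of libraries, 0 with trametinib listed first only and 1 with it listed second only. Without the replicate block it was 1, and with runs left out it ranged from 1 to 2. FTL kept its direction throughout but missed the threshold without the filter (-1.14, adjusted p = 0.786) and with either order alone (-0.89 and -1.50, adjusted p = 0.309 and 0.0622). The run numbers entered the fits as a block and not as a pairing. Of same-run correlations, 0% (dT) and 13.3% (Bio) exceeded 0.1. Each was taken over many genes at once, so they cannot show whether runs differed for single genes such as HBG2.

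In the dT screen the count of 2 became 112 with DESeq2, 1 with its size factors in edgeR, 12 without a filter, 0 at 75%, 9 and 12 with trametinib listed first or second only, 1 after thinning, 0 without the replicate block and 0 without the run 3 library Trametinib_YM115. With any 1 run left out it was 0, and FTL was then at -1.47 (run 1), -1.31 (run 2) and -1.23 (run 3), with adjusted p = 0.214, 0.732 and 0.309. HBG2 was then at 0.63, 0.64 and 0.52 (adjusted p = 0.214, 0.0636 and 0.309). The Bio count of 0 became 55 with DESeq2, 1 without a filter and 2 with trametinib listed first only. For the difference between screens DESeq2 gave 91. For the product with listed order it gave 108 in the dT screen, where no filter gave 6, edgeR's filterByExpr 8, and leaving out runs 0 to 1 (1 without run 3), and 99 in the Bio screen. Against solvent the count of 1 became 54 with DESeq2, 9 without a filter and 9 with filterByExpr, and 0 to 1 with runs left out (0 without dT run 3). HMGA1 was at 1.28, 1.35 and 1.38 without dT run 2, without dT run 3 and without a filter (adjusted p = 0.058, 0.0962 and 0.899). Against imatinib the counts were 15, 11 and 19 for DESeq2, no filter and filterByExpr. The cause was not tested for any of these.

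Of 1086 values of named genes under other settings, 933 kept direction and side of the threshold, 28 lost and 23 gained a call, and 102 changed sign, none of them a call. With DESeq2 and its size factors in edgeR, in that order where they differ, log2 values were -0.11 for ENO1, -0.048 and -0.047 for MT-CO1, -0.0011 and -0.0013 for MYL6, -0.044 and -0.043 for PSMA4, -0.18 for PSMB7, -0.13 for RACK1, -0.067 for RPL31, -0.0032 and -0.0027 for MT1X in the Bio screen, and 0.082 and 0.083 for HMGA1 against imatinib. At 75% they were -0.031 for ENO1, -0.10 for PSMB7, -0.073 for RACK1 and -0.0044 for RPL31. With filterByExpr they were 0.045 for PRDX5 and -0.018 for PSMB7. Without a filter they were 0.035 for MAP2K2, 0.15 for PRDX5 and 0.082 for STMN1. Without the replicate block they were -0.27 for GARS1, 0.20 for GPX4, -0.075 for JUN and 0.32 for PRDX5. With the replicate block and listed order together they were 0.037 for BCR, -0.056 for GARS1, 0.080 for GPX4, 0.77 for MAP2K2, 0.0039 for MT-ND5, 0.21 for PRDX5 and 0.46 for STMN1. After thinning they were -0.096 for ENO1, -0.046 for MT-CO1, -0.066 for PSMA4, -0.19 for PSMB7, -0.12 for RACK1 and -0.045 for RPL31. With trametinib listed first only they were -0.077 for GARS1, 0.68 for MAP2K2, -0.15 for MT-CO1, 0.73 for MT-RNR1, -0.17 for MYL6, 1.17 for PRDX5, -0.47 for PSMB7, 0.16 for STMN1 and -0.12 for MT1X in the Bio screen. With it listed second only they were -0.16 for ACTG1, 0.084 for BLVRB, -0.021 for GARS1, 0.24 for GPX4, 0.98 for MAP2K2, 1.63 for MT-ND5, -0.60 for PSMA4, -0.046 for RPL31 and 0.78 for STMN1. With the library of 808 genes, an alternative chosen after seeing the data, they were -0.029 for ENO1, 0.0086 for GPX4, 0.38 for MAP2K2, 0.42 for PRDX5 and 0.19 for STMN1. Without the dT run 3 library Trametinib_YM115, likewise chosen after seeing the data, they were -0.21 for GARS1, -0.022 for RACK1 and 0.027 for STMN1. With runs left out in turn, values ranged from -0.088 to 0.96 for BAX, -0.045 to 0.23 for ENO1, -0.64 to 0.53 for GPX4, -0.76 to 0.81 for MAP2K2, -0.0059 to 0.21 for MT-CO1, -0.76 to 0.69 for PRDX5, -0.84 to 0.96 for PSMA4, -0.21 to 0.27 for PSMB7, -0.063 to 0.089 for RACK1, -0.54 to 0.63 for STMN1 and -0.017 to 0.33 for MT1X in the Bio screen. They ranged from -0.12 to 0.32 for HBG2 between screens, from -0.27 to 0.049 for HBG2 against solvent and from -0.075 to 0.082 for HMGA1 against imatinib.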
